A study of Homo sapiens with 4 samples.

Results

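Histone genes were examined in 4 RNA-seq libraries of MDA-MB-231, a long-established line of human breast cancer cells that is triple-negative (poor in ESR1, PGR and ERBB2) and mesenchymal-like. The genes were chosen by a rule on name and biotype, with earlier results of these data known. It took protein-coding rows of the count table whose symbol starts with HIST1H to HIST4H, H2AF, H3F3 or H1F. This gave 87 of 58735 genes, of which 71 carry a HIST name and 16 are named as replacement variants. All cells carried a TetOn-H2BeGFP reporter, a histone H2B fused to a green fluorescent protein and switched on by doxycycline. They received 5 μg/ml of it for 3 days, took up the dyes Claret and Violet, and were chased for 12 days, during which label is diluted by division. Slow-cycling cells were the 1% that retained most Claret, most H2B-eGFP or most Violet, each sorted on its own, and Bulk cells were sorted with no gate on fluorescence. The groups, named Claret, eGFP, Violet and Bulk from the sample titles, hold 1 library each, so that no difference below has a replicate check. The H2B gene from which the reporter was built, and whether the line is 1 clone, are not given in the sources used here.

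In every sample the treatment field names another sort than the title. The library titled Bulk is given there as Claret, Claret as eGFP, H2B-eGFP as Violet, and Violet as un-gated. Titles are used here because the deposited columns carry the same names, and values with the other grouping are given in the closing section. Summed reads ranged from 15508179 to 16976909, so that 0 reads allow up to 0.177 to 0.193 CPM (read counts scaled to a common library total, here the upper limit set by 3 reads). Of the line's markers, VIM, CD44, KRT18 and KRT8 summed to 1719 to 2059 CPM, PGR had no reads, ESR1 had 3 to 7 reads and CDH1 0 to 3, whereas ERBB2 held 1415 to 1542 reads and so was not absent. Markers of leukocytes, fibroblasts, endothelium and hepatocytes summed to 21.8 to 28.7 CPM, mostly COL1A1, with CD3E at 0. Among the latter, VWF passed the call rule as higher in all 3 slow-cycling libraries, with 19 to 24 reads against 4 in Bulk. The part of such cells in the results was not tested.

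Histones package DNA into nucleosomes, each built on an octamer of H2A, H2B, H3 and H4, while H1 binds the linker DNA between them. Genes of the HIST clusters are replication-dependent: they are transcribed mainly in S phase, and their mRNAs end in a conserved stem-loop that binds the protein SLBP instead of a poly(A) tail. Replacement variants such as H3.3, H2A.Z, macroH2A and H1.0 are made from polyadenylated mRNAs and can be placed into chromatin outside S phase. Some HIST genes also make polyadenylated transcripts, and H2AFX mRNA can end either way. A library made from polyadenylated RNA misses stem-loop mRNAs. The labels name the NEBNext Ultra RNA kit and do not say whether poly(A) RNA was selected, so low reads of a HIST gene cannot be told apart from mRNA that was not captured.

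Replacement variants held nearly all histone reads, and most HIST genes were barely seen. In the order Bulk, Claret, eGFP, Violet, HIST genes summed to 650, 477, 555 and 624 reads, whereas replacement variants summed to 39411, 30437, 25916 and 28004. Of the 71 HIST genes, 34 had no read in any library, 27 peaked at 1 to 9 reads and 10 reached 10 reads in at least 1 library. A mean of at least 1 CPM over the libraries, the minimum for testing, was met by 7 HIST genes and 9 of the 16 replacement variants. Of the latter, 10 reached 10 reads in some library, 4 peaked under 10 reads, and H2AFB2 and H2AFB3 had none. The 34 unseen genes include HIST1H1A, HIST1H1B, HIST1H1D, HIST1H3A and HIST1H4D, which encode linker and core histones. Reads that match several genes may be lost in counting. The median share of the 31-base stretches of unseen genes that occur in transcripts of another gene was 4.17%, against 12.4% for the 37 HIST genes with reads. At least 50% of these stretches were shared in 8 of the 34 unseen genes and in 9 of the 37 others, so reads lost in this way are possible in both. By cluster, HIST1 on chromosome 6 (55 genes, 25726132 to 27893843 in GRCh38) supplied 6 of the 7 genes tested, and HIST2 on chromosome 1 supplied 1. By histone, H2B supplied 4, H1, H2A and H4 1 each, and the 15 HIST genes for H3 none. Genes with an annotated exon length of at least 1000 bases, room for more than the short stem-loop transcript, reached 10 reads in 5 of 21 cases. Shorter ones did so in 5 of 50.

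**Figure D1:**
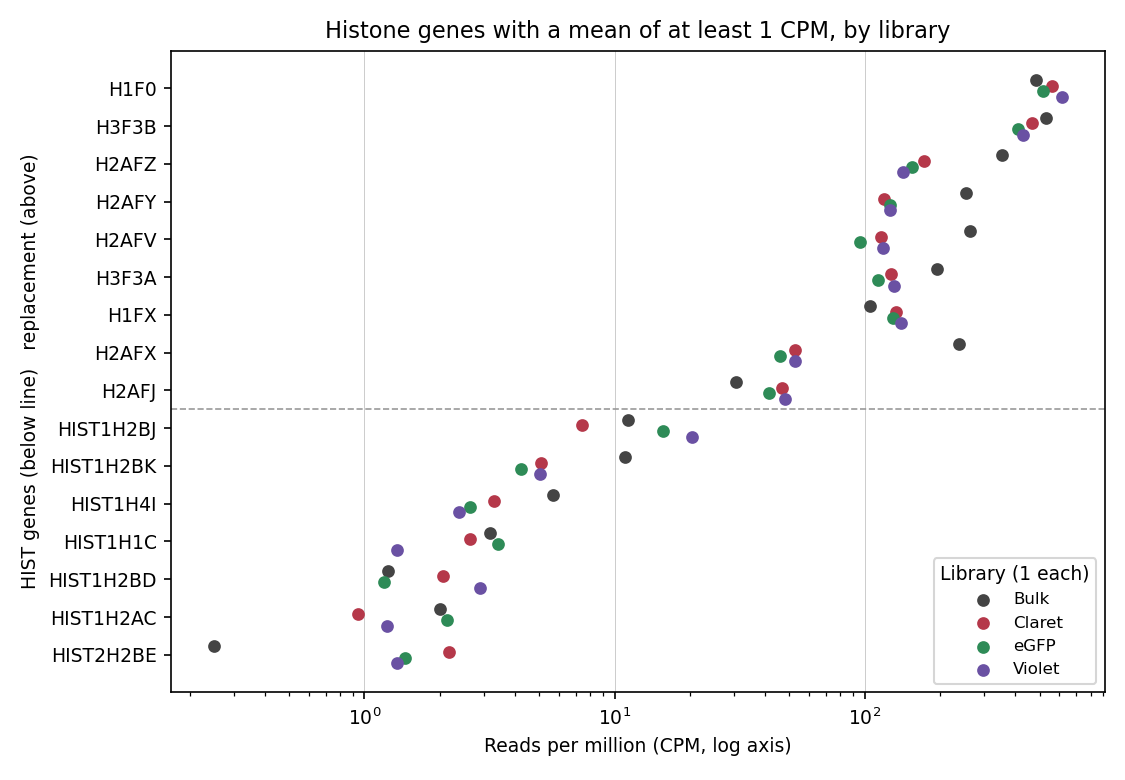
Level of each histone gene with a mean of at least 1 CPM in the 4 libraries (points, 1 library each), in CPM on a log axis, with replacement variants above the dashed line and HIST genes below. Bulk stands to the right of the slow-cycling libraries at H2AFX, H2AFZ, H2AFV and H2AFY, and to the left of them at H2AFJ, H1FX and HIST2H2BE.

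Against Bulk, 4 H2A variants fell in every slow-cycling library, whereas H3.3, the linker histones and H2AFJ were not called. A gene was called when the exact binomial test on the reads of 2 libraries gave an adjusted p under 0.05 over all 14585 genes tested and the log2 ratio was at least 1 in size. That test compares libraries, not conditions. In each slow-cycling library 4 of the 9 tested variants were called lower and 0 higher. The same 4 genes, H2AFX, H2AFZ, H2AFV and H2AFY, were called in all 3. Over all genes tested, 6.67% were called lower and 11.2% higher in Claret, 7.6% and 11.9% in eGFP, and 7.01% and 11.3% in Violet, and 4.92% were called lower in all 3. By the read test alone, without the fold minimum, the other 5 variants also differed in every library, 3 of them upward. The smallest of these differences was that of H1F0 in eGFP, at 0.06 (0.01 to 0.10). The test alone was not repeated with other scalings of the libraries. Median log2 ratios of the 9 were -0.64, -0.82 and -0.62 in Claret, eGFP and Violet, beside -0.01, -0.01 and 0.00 over all genes tested. Comparisons with Bulk share that library, so their similarity is no independent evidence. In bulk RNA of sorted cells, fewer cells of a type and less RNA per cell cannot be told apart.

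H2AFX showed the largest fall of any histone gene tested. H2AFX encodes H2A.X, the variant phosphorylated around DNA breaks, and lies on chromosome 11 (119093854 to 119095467, minus strand). Its 3832 Bulk reads stood against 896 in Claret, 725 in eGFP and 815 in Violet. Bulk alone was high, and the other 3 libraries lay close together. The log2 ratio of H2AFX to Bulk was -2.20 in Claret (95% exact interval -2.31 to -2.10), -2.41 for eGFP (-2.53 to -2.30) and -2.23 for Violet (-2.35 to -2.13). Its share of the reads of the 6 H2A variants with 10 reads in some library (H2AFX, H2AFZ, H2AFV, H2AFY, H2AFY2 and H2AFJ) was 20.9% in Bulk (20.3% to 21.5%) and 9.83% to 10.8% in the slow-cycling libraries.

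H2A.Z, a variant found around transcription start sites, is encoded by H2AFZ and H2AFV. H2AFZ (chromosome 4, 99948086 to 99950388, minus strand) had 5668, 2920, 2463 and 2199 reads in Bulk, Claret, eGFP and Violet. It fell in all 3, with log2 ratios of -1.06, -1.21 and -1.37 to Bulk and intervals from -1.44 to -0.998 over the 3 comparisons. H2AFV (chromosome 7, 44826791 to 44848083, minus strand) had 4222, 1973, 1516 and 1841 reads in the same order. H2AFV fell as well, with ratios of -1.20, -1.49 and -1.20. Violet was the lowest library for H2AFZ and eGFP for H2AFV, so that H2AFZ supplied 61.9% of H2A.Z reads in eGFP (60.4% to 63.4%) and 54.4% in Violet (52.9% to 55.98%). Summed over both genes, H2A.Z was at -1.12, -1.32 and -1.30.

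Upstream sequences are shown for H2AFX and H2AFZ because these genes fell in all 3 libraries, H2AFX by more than any other histone gene tested. They are RefSeq promoters of GRCh38.p14, 250 bases before to 50 after the start, at chr11:119095416-119095715 and chr4:99950226-99950525, both on the minus strand. Capitals mark exact matches on either strand to 4 motifs. These are the CCAAT letters of the NF-Y site, the TATA box in the form TATAAA, the octamer ATGCAAAT of H2B promoters (read as ATTTGCAT on the other strand), and TTTGGCGC, a form of the E2F site. No match overlaps another motif in these windows. Both hold a TATAAA match, and CCAAT occurs 4 times in H2AFX and 3 times in H2AFZ.
H2AFX: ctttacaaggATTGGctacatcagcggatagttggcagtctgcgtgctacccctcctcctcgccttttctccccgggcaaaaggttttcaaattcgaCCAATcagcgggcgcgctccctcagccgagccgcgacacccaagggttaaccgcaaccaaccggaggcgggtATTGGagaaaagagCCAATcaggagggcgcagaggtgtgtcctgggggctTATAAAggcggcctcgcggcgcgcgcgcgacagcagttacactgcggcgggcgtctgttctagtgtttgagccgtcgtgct
H2AFZ: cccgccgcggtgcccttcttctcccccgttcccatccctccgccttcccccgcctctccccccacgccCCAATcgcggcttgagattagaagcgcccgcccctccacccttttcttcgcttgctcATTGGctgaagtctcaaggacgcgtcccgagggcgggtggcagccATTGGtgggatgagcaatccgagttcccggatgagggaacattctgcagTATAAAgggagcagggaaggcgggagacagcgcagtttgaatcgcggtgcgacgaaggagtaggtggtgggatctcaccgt

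MacroH2A carries a large extra domain and is known from silent chromatin such as the inactive X chromosome. Its main gene here, H2AFY, had 4086 Bulk reads against 2027 (Claret), 2001 (eGFP) and 1953 (Violet). H2AFY fell, with log2 ratios of -1.12, -1.04 and -1.07. In eGFP (-1.12 to -0.96) and Violet (-1.15 to -0.99) the interval reached below the fold minimum. The call in eGFP was lost with a correction for transcript GC content (-0.99) and on the scale log2(FPKM + 1) (-0.97). The other macroH2A gene, H2AFY2, was under the minimum for testing, with 8, 14, 14 and 17 reads, and made up 0.195% to 0.863% of macroH2A reads.

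H3.3, the H3 variant deposited outside S phase, is encoded with the same protein sequence by H3F3A and H3F3B. Neither was called. H3F3A had 3133 Bulk reads and, in the slow-cycling libraries, 2169, 1788 and 2039, at log2 ratios of -0.64, -0.82 and -0.62. For H3F3B the reads were 8502, 7889, 6528 and 6670, and the ratios -0.21, -0.39 and -0.35. Bulk was the highest library for both. H3F3B supplied 73.1% of H3.3 reads in Bulk (72.3% to 73.9%), 78.4% in Claret (77.6% to 79.2%), 78.5% in eGFP (77.6% to 79.4%) and 76.6% in Violet (75.7% to 77.5%), and these intervals do not overlap that of Bulk. Of the H3F3A transcript stretches of 31 bases, 12.2% also occur in its pseudogene H3F3AP4, so part of its count is uncertain. H3F3C, the remaining gene of this name, had 3 reads in Bulk and 0 elsewhere.

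The replacement variants above Bulk were linker histones and H2AFJ, and none was called. H1F0 encodes H1.0, a linker histone known to accumulate in cells that stop dividing, and had more reads over the 4 libraries than any other histone gene. Its reads were 7781, 9493, 8167 and 9561 in Bulk, Claret, eGFP and Violet, with log2 ratios of 0.18, 0.06 and 0.29. H1FX, another linker histone, had 1687, 2255, 2057 and 2167 reads and ratios of 0.31, 0.28 and 0.36. An antisense gene with 26 to 54 reads overlaps it, and without a stated use of strand their reads cannot be told apart. H2AFJ, an H2A variant described in senescent cells, had 489, 795, 657 and 742 reads and ratios of 0.59, 0.41 and 0.60. Bulk was the lowest library for each of the 3. The H1F0 difference in eGFP was the smallest, with an interval of 0.01 to 0.10. Summed over H1F0 and H1FX, linker histones lay 0.21 above Bulk in Claret (0.17 to 0.24), 0.10 in eGFP (0.06 to 0.14) and 0.31 in Violet (0.27 to 0.34).

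Between genes, levels were compared per length with the deposited FPKM values (reads scaled to exon length and library total). In Bulk, H1F0 was at 214 FPKM, H2AFZ at 158, H2AFX at 153, H3F3B at 89.2, H1FX at 72.0, H3F3A at 64.1 and H2AFV at 57.2. In Claret, H1F0 was at 239, H1FX at 88.2, H3F3B at 75.8, H2AFZ at 74.7, H3F3A at 40.6, H2AFX at 32.7 and H2AFV at 24.5. H1FX thus stood below H2AFX in Bulk and above it in Claret, and the same held in eGFP (85.4 and 28.1 FPKM) and Violet (89.6 and 31.5). H2AFY had 14.8 FPKM in Bulk, a value that rests on an annotated exon length of 17730 bases. The highest HIST gene per length was HIST1H2BK in Bulk, at 29.9 FPKM.

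**Figure D2:**
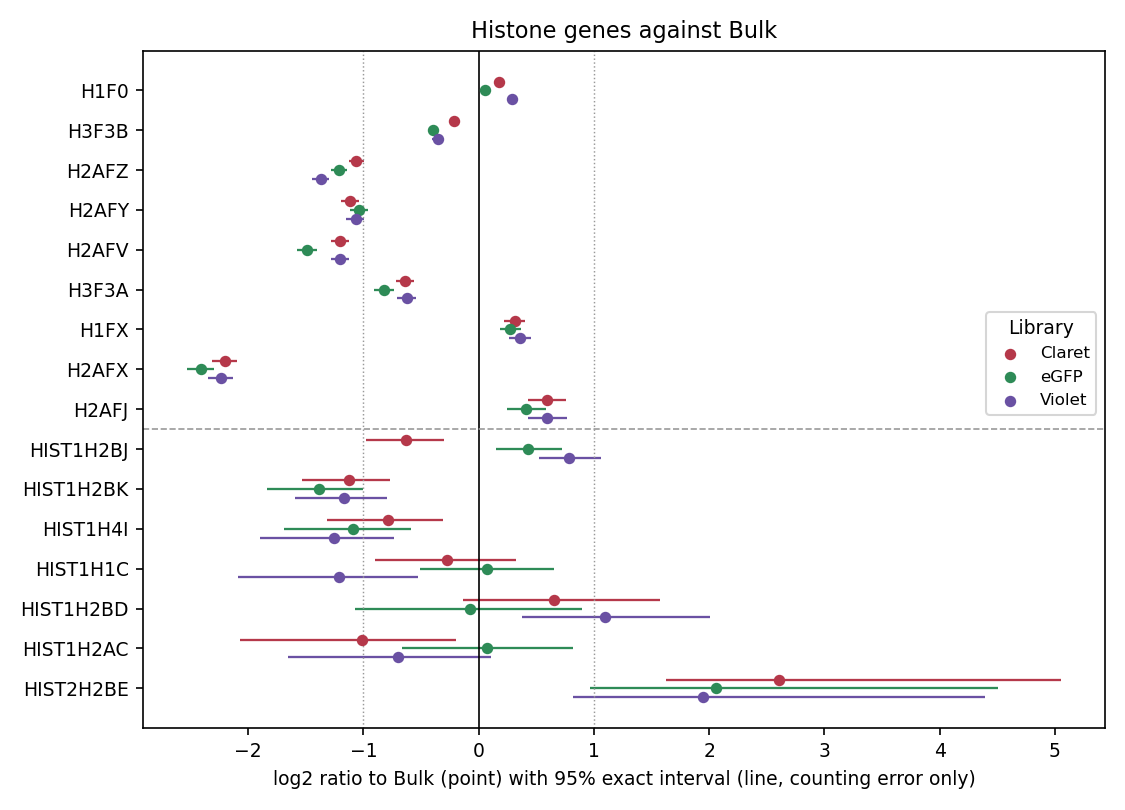
Log2 ratio of each tested histone gene to Bulk in Claret, eGFP and Violet (points) with 95% exact intervals (lines, counting error only), and dotted lines at the fold minimum of 1 in size. H2AFX lies between -2.20 and -2.41 in all 3 libraries, and HIST1H2BJ is the gene whose intervals lie below 0 in 1 library and above 0 in the others.

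Calls among the HIST genes went in both directions. Of the 7 tested, 1 was called higher and 2 lower in Claret, 1 and 2 in eGFP, and 2 and 3 in Violet. The only higher call in Claret and in eGFP was that of HIST2H2BE, which met the minimum for testing only through the slow-cycling libraries. Medians of the 7 were -0.63, 0.07 and -0.70. These counts are small, and whether they differ from the shares over all genes given above was not tested. HIST1H2BK (chromosome 6, 27146418 to 27146798), an H2B gene, was called lower in all 3. Its reads were 177, 86, 67 and 78 (Bulk first), giving log2 ratios of -1.13 (-1.54 to -0.77), -1.39 (-1.84 to -0.999) and -1.17 (-1.59 to -0.79). Of its 31-base stretches, 86.3% occur in other genes, mostly H2BFS, so its count is uncertain. HIST1H4I, an H4 gene, had 91 Bulk reads against 56, 42 and 37 in the other libraries. It fell in eGFP (-1.09) and Violet (-1.26), and its ratio for Claret was -0.78. Both calls were lost on the scale log2(FPKM + 1), at -0.87 and -0.99. HIST2H2BE (chromosome 1, 149884459 to 149886652), an H2B gene of another cluster, was called higher in all 3. Only 4 reads fell to it in Bulk, against 37 (Claret), 23 (eGFP) and 21 (Violet), giving ratios of 2.61 (1.63 to 5.05), 2.06 (0.96 to 4.50) and 1.94 (0.82 to 4.39). Its mean of 1.31 CPM met the minimum for testing only through the slow-cycling libraries (2.18, 1.45 and 1.35 CPM, against 0.249 in Bulk). Its place among the tested genes thus depended on the libraries in which it was high. On the log2(FPKM + 1) scale, which compresses low values, its differences were 0.84, 0.57 and 0.51 and it was no longer past the fold minimum. Over all genes tested, 8.36% were called higher in all 3 libraries.

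The other tested HIST genes were called in 1 library or in none. HIST1H1C, a linker histone, had 51, 45, 54 and 21 reads in Bulk, Claret, eGFP and Violet. It fell by 1.21 in Violet, with ratios of -0.28 and 0.07 in Claret and eGFP. HIST1H2AC had 32, 16, 34 and 19 reads, and its call in Claret (-1.01, interval -2.07 to -0.20) was lost with library-size scaling (-0.99), with the GC correction (-0.93) and on the scale log2(FPKM + 1) (-0.51). HIST1H2BD had 20, 35, 19 and 45 reads and rose by 1.09 in Violet (0.38 to 2.004), a call also lost on that scale (0.77). With under 60 reads in every library, these counts limit the precision of the ratios. Below the minimum for testing, HIST1H2AG had 19 reads in Bulk and 5, 7 and 5 elsewhere, with intervals below 0 in all 3 comparisons (-3.81 to -0.56 in Claret, -2.94 to -0.14 in eGFP and -3.71 to -0.46 in Violet). HIST1H2BN (9, 7, 17 and 19 reads), HIST2H2AC (10, 10, 8 and 3), HIST1H4H (8, 8, 5 and 8) and HIST1H1E (7, 5, 7 and 6) had intervals that included 0. HIST1H2AG and HIST2H2AC encode H2A, HIST1H2BN H2B, HIST1H4H H4 and HIST1H1E linker H1.4.

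HIST1H2BJ, an H2B gene on chromosome 6 (27125897 to 27132750, minus strand), held more reads than any other HIST gene. Its reads were 182 (Bulk), 126 (Claret), 248 (eGFP) and 315 (Violet). Claret was low and eGFP and Violet were high, on opposite sides of Bulk. Against Bulk the log2 ratios were -0.63 (-0.98 to -0.30), 0.43 (0.15 to 0.72) and 0.78 (0.52 to 1.06), none called because none reached the fold minimum. HIST1H2BJ made up 28.0% of HIST reads in Bulk (24.6% to 31.6%), 26.4% in Claret (22.5% to 30.6%), 44.7% in eGFP (40.5% to 48.9%) and 50.5% in Violet (46.5% to 54.5%). Of its 31-base stretches, 10.1% occur in transcripts of other genes, 7.31% in HIST1H2BK. Reads from the H2B part of the reporter, if it shares sequence with this gene, cannot be told apart from reads of the gene itself. By the treatment field, the library titled Violet would be the un-gated one and the library titled H2B-eGFP the Violet sort.

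Much of the difference in summed HIST reads among the slow-cycling libraries lay in HIST1H2BJ. With and without that gene, the log2 ratio was -0.31 and 0.10 for Claret against eGFP. It was -0.49 and 0.08 for Claret against Violet, and -0.18 and -0.02 for eGFP against Violet. Over all 71 genes the log2 ratio to Bulk was -0.55 in Claret (-0.73 to -0.38), -0.24 in eGFP (-0.40 to -0.07) and -0.06 in Violet (-0.22 to 0.10). Without HIST1H2BJ, an alternative chosen after its values were seen, the ratios were -0.52 (-0.72 to -0.32), -0.62 (-0.83 to -0.41) and -0.60 (-0.81 to -0.39). Leaving it out thus widened the difference from Bulk in eGFP and Violet and hardly changed it in Claret. Replacement variants summed to -0.48, -0.62 and -0.50. The HIST share of all histone reads was 1.62% in Bulk (1.501% to 1.75%), 1.54% in Claret, 2.10% in eGFP (1.93% to 2.28%) and 2.18% in Violet (2.01% to 2.36%). Leaving HIST1H2BJ out, it was 1.17%, 1.14%, 1.17% and 1.09%, with intervals that overlap. With all 71 genes, the HIST share in eGFP and Violet thus lay above that in Bulk, with intervals that do not overlap. HIST1H2BJ was left out after its values were seen, so the overlap without it is no test of a difference between the classes. By histone, summed HIST reads for H4 were lower than Bulk in all 3 libraries (111 reads in Bulk, 86, 53 and 63 elsewhere, intervals below 0). HIST1H4I alone held 91 of these reads in Bulk and 56, 42 and 37 elsewhere, so that sum rests largely on 1 gene. Log2 ratios of the sums were -1.08, -0.25 and -1.17 for H2A, -0.32, 0.06 and -1.11 for H1, and -0.52, -0.09 and 0.28 for H2B. Intervals included 0 for H2A and H2B in eGFP and for H1 in Claret and eGFP. HIST1H2BJ held 248 of 381 H2B reads in eGFP and 315 of 492 in Violet. Without that gene the H2B sums were -0.43, -0.74 and -0.32, with intervals below 0. Reads for H3 were 13, 5, 5 and 13, with Bulk first.

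**Figure D3:**
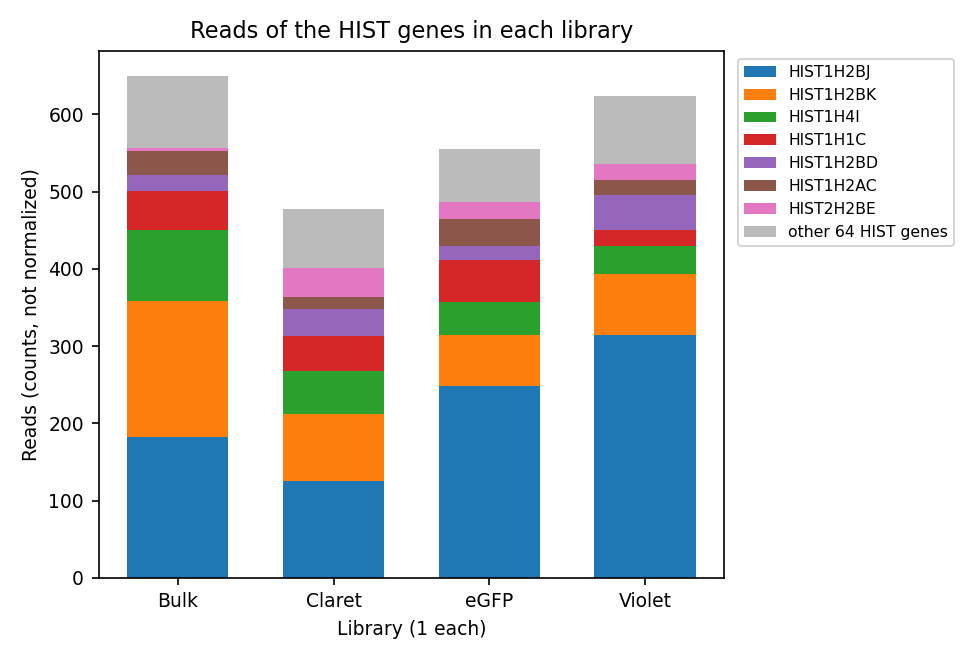
Reads of the 71 HIST genes in each library (stacked bars, counts not normalized), with the 7 tested genes in colour and the other 64 in grey. HIST1H2BJ takes 182 of 650 reads in Bulk and 315 of 624 in Violet. The segments above it sum to 468 reads in Bulk and to 351, 307 and 309 in Claret, eGFP and Violet, though some single segments are taller than in Bulk.

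Upstream sequences of HIST1H2BJ and HIST2H2BE are shown because each gene shares its promoter with an H2A gene read in the other direction whose ratio differed from its own in some libraries, a choice made after their values were seen. The starts of HIST1H2BJ and HIST1H2AG lie 48 bases apart and their 300-base promoters share 253 bases. For HIST2H2BE and HIST2H2AC the distance is 36 bases and the shared stretch 265 bases. In Violet, HIST1H2BJ was at 0.78 and HIST1H2AG at -1.59, and in Claret HIST2H2BE was at 2.61 and HIST2H2AC at -0.09, with 5 and 10 reads of the H2A genes. The intervals did not overlap there, nor in eGFP for the first pair and in Violet for the second. They overlapped in Claret for the first pair, where both genes lay below Bulk (-0.63 and -1.67), and in eGFP for the second. HIST1H4I, which fell in eGFP and Violet, is shown as an H4 promoter. The windows are chr6:27132746-27133045 and chr1:149886633-149886932 on the minus strand and chr6:27139032-27139331 on the plus strand, with capitals as above, where adjoining capitals can hold overlapping matches on both strands.
HIST1H2BJ: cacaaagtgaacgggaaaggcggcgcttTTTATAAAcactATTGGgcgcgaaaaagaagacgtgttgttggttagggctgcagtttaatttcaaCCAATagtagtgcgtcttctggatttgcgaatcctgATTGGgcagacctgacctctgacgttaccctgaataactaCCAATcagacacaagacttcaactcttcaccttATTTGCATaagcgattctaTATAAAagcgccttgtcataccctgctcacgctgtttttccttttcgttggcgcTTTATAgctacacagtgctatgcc
HIST2H2BE: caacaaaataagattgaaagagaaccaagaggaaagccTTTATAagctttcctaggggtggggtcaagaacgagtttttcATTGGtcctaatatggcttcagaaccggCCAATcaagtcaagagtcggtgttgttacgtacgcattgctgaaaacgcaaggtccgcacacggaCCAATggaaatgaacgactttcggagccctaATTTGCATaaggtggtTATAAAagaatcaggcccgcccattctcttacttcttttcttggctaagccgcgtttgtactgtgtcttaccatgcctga
HIST1H4I: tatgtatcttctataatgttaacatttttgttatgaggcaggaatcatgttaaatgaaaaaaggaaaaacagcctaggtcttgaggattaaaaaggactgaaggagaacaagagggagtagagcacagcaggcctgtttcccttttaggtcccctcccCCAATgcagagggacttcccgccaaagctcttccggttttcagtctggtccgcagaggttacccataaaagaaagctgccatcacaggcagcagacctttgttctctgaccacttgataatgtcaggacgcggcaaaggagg

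RefSeq promoters were matched for 66 HIST genes and 14 replacement variants. CCAAT on either strand, the core of the site bound by NF-Y, was present in 84.8% of the HIST promoters and 78.6% of the replacement promoters, against 35.7% of 27305 promoters of the same length. TATAAA was in 66.7% of HIST and 28.6% of replacement promoters, against 12.0% of all. The octamer, known from H2B promoters, was in 14 of 18 H2B, 11 of 16 H2A and 1 of 13 H3 promoters of the HIST class, in 0 of 6 H1 and 0 of 13 H4 promoters, and in 1.8% of all. CCAAT was in every H1, H2A, H2B and H3 promoter of the HIST class but in 3 of 13 H4 promoters. The letters TTTGGCGC were found in 0 of the 80 and in 0.659% of all promoters. Where RefSeq gives a gene several starts, the one listed first was used. The H3 promoter with the octamer, that of HIST1H3D, is then the same window as that of the H2A gene HIST1H2AD. Promoters that overlap, such as this one and the pairs named above, are not independent counts.

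Among the slow-cycling libraries, few histone genes differed. HIST1H2BJ was called lower in Claret than in eGFP (-1.06, interval -1.39 to -0.76) and than in Violet (-1.41, -1.73 to -1.12), and its ratio of eGFP to Violet was -0.35 (-0.60 to -0.11). HIST1H1C was called higher in eGFP than in Violet (1.28, 0.60 to 2.16) and HIST1H2BD lower (-1.17, -2.11 to -0.45). Of the 16 tested histone genes, 1 was thus called between Claret and eGFP, beside 0.713% of all genes tested (0.309% higher in Claret, 0.405% lower). Between Claret and Violet it was also 1, beside 0.788% (0.226% higher in Claret, 0.562% lower). Between eGFP and Violet 2 were called, beside 0.932% (0.288% higher in eGFP, 0.644% lower). No replacement variant was called between slow-cycling libraries. By the read test alone H1F0 and H2AFZ differed in all 3 pairs, with log2 differences no larger than 0.31 in size. Replacement variants were higher in Claret than in eGFP for 8 of 9 genes (median 0.18), and lower in eGFP than in Violet for 7 of 9 (median -0.18). The 20 S-phase genes gave 20 of 20 and 16 of 20 in the same directions, with medians of 0.21 and -0.10. Of all 14585 genes tested, 7362 and 7102 went in these directions, with medians of 0.0018 and 0.0061. Both comparisons use the eGFP library, so they are not independent. Between Claret and Violet the 2 lists differed, with 3 of 9 replacement variants (median -0.0030) and 16 of 20 S-phase genes (median 0.13) higher in Claret. Over all genes tested it was 7579. Whether the lists are related was not tested.

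Related genes were set beside the histones. All 20 S-phase genes of a list that holds MCM2 to MCM7, PCNA and RRM2 were called lower in each library, with medians of -2.21, -2.59 and -2.25. Over all genes tested, 6.67%, 7.6% and 7.01% were called lower. The list was written with earlier results of these data known, so its fall is a description and no test. Every histone gene tested lay above the S-phase medians, H2AFX narrowly (-2.20, -2.41 and -2.23). CENPA, the H3 variant of centromeres, lies outside the name rule. It had 631 Bulk reads against 128, 100 and 104, a fall with log2 ratios of -2.39, -2.64 and -2.58.

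Of 20 genes for synthesis and 3′ processing of histone mRNA, 8, 6 and 7 were called lower in Claret, eGFP and Violet and 0 higher, with medians of -0.79, -0.76 and -0.79. Over all genes tested, 6.67%, 7.6% and 7.01% were called lower and 11.2%, 11.9% and 11.3% higher. Besides S-phase regulators the list holds general mRNA factors. E2F1, CCNE2, CDK2, SRRT and NCBP1 fell in all 3, with CCNE2, a cyclin of S-phase entry, at -3.21, -3.31 and -2.68. These 5 were named after their values were seen. SLBP, which binds the stem-loop, had 1371 Bulk reads against 691, 707 and 691 elsewhere. It fell by 1.09 in Claret, and its ratios of -0.96 and -0.99 in eGFP and Violet were just under the fold minimum. In Violet it passed with DESeq2 size factors (-1.03), on the scale log2(FPKM + 1) (-1.002) and with the GC correction (-1.02). NPAT, the activator of HIST transcription, had 573, 348, 420 and 365 reads and was not called (-0.82, -0.46 and -0.65). CASP8AP2, which acts with NPAT, fell in Claret and eGFP (-1.06 and -1.097) and was at -0.82 in Violet. Both its calls were lost with the GC correction (-0.96 and -0.996).

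Of 26 tested genes for histone chaperones and deposition, 11, 13 and 11 were called lower in the same order and 0 higher, with medians of -0.79, -1.0002 and -0.80, beside the same 6.67%, 7.6% and 7.01% lower over all genes tested. Some chaperones that act at replication fell and others were not called. CHAF1A, a subunit of the factor CAF-1, had log2 ratios of -2.11, -2.35 and -2.28 (2237 Bulk reads against 441 to 555), and its partner subunit CHAF1B of -2.08, -2.58 and -2.06. RBBP4, the remaining subunit, was not called (-0.63, -0.73 and -0.79). ASF1B, which hands H3 and H4 to CAF-1, fell (-2.09, -2.59 and -2.35), whereas its paralog ASF1A was not called (-0.13, -0.06 and -0.12). NASP, which holds soluble H3 and H4, fell as well (-1.27, -1.41 and -1.33). HJURP, the chaperone of CENPA, fell likewise (-2.03, -2.43 and -2.04). Chaperones that deposit H3.3 outside S phase, HIRA with its partners UBN1, UBN2 and CABIN1, and DAXX with ATRX, were not called. HIRA had 184 reads in Bulk and 148, 157 and 127 elsewhere (-0.42, -0.24 and -0.53), and DAXX 1438, 1325, 1218 and 1143 (-0.22, -0.25 and -0.33). UBN2 (0.57, 0.78 and 0.93) and ATRX (0.20, 0.27 and 0.50) lay above Bulk, and UBN1 and CABIN1 below it, at -0.28 to -0.55. RBBP4, ASF1A, UBN1, UBN2, CABIN1 and ATRX were named after their values were seen.

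**Figure D4:**
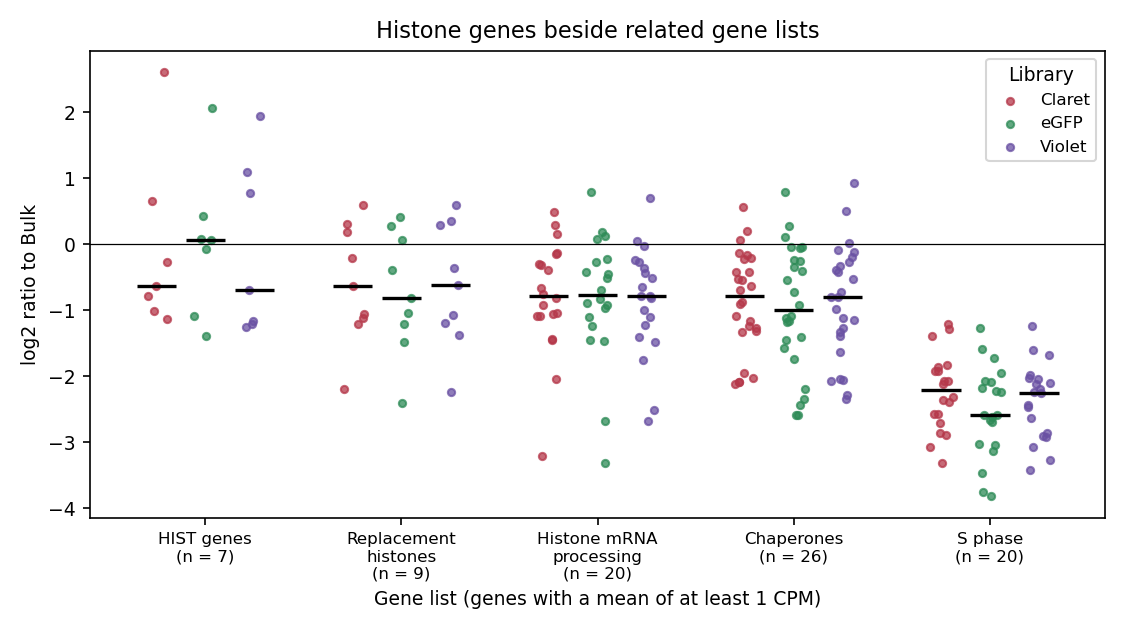
Log2 ratio to Bulk of each tested gene (points) in 5 gene lists for Claret, eGFP and Violet, with black bars at the medians. All 20 S-phase genes lie below -1.2, whereas the 7 HIST genes spread from -1.39 to 2.61 and the 9 replacement variants from -2.41 to 0.60. The highest HIST gene, HIST2H2BE, met the minimum for testing only through the slow-cycling libraries.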

How the data were processed

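The deposited count table holds whole-number counts per gene that the authors did not normalize, per the file headers and values. HISAT2 2.0.5 and featureCounts 1.5.0-p3 are named in the submitters' processing notes; use of strand and handling of multi-mapping reads are not given in the sources used here. The deposited FPKM values were made by the authors, and within each library are proportional to count over gene length. Gene positions equal GENCODE 29 (GRCh38) for all 87 histone genes.

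TMM factors over all genes came from edgeR 4.0.16 under R 4.3.3, and log2 ratios used a prior count of 2. Genes with a mean of at least 1 CPM were tested (14585). The quasi-likelihood test of edgeR needs replicates, which groups of 1 library lack, so reads of 2 libraries were compared by a two-sided exact binomial test with Benjamini-Hochberg adjustment over those genes, for all 6 pairs. The test was checked on simulated data. Intervals are 95% exact (Clopper-Pearson), for ratios of reads and for shares, and like the floor of 3 reads cover counting error only, since reads carry no molecular identifiers. Shared 31-base stretches were counted in GENCODE 29 transcripts on the same strand. RefSeq promoters were matched by symbol or synonym, only where the RefSeq gene overlaps the deposited position.

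Genes named are the tested replacement variants, the 12 HIST genes with the most CPM, HIST genes called the same way in all 3 libraries, members called between slow-cycling libraries, and 11 related genes; others are said to be named after their values were seen. Members and lists were chosen with earlier results of these data known. Alternatives were library-size scaling, size factors from DESeq2 1.42.0, no filter or 10 CPM, a prior count of 0.5, log2(FPKM + 1), other call rules, the treatment field, H2AFX moved between classes and, chosen after seeing the data, a GC correction and leaving out HIST1H2BJ or H2AFX.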

Additional observations from a re-analysis of the deposited data

Results flagged for a closer look

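Differences from Bulk that differ between slow-cycling libraries were found for 3 HIST genes, by the exact binomial test on reads with Benjamini-Hochberg adjustment over all genes tested. HIST1H2BJ lay below Bulk in Claret and above it in eGFP and Violet, and its log2 ratio was -1.06 for Claret against eGFP (adjusted p = 4.48e-10) and -1.41 for Claret against Violet (adjusted p = 1.18e-20). HIST1H1C was lower than Bulk in Violet but not in eGFP, with a log2 ratio of 1.28 for eGFP against Violet (54 and 21 reads, adjusted p = 0.00252). HIST1H2BD was above Bulk in Violet but not in eGFP, at -1.17 for eGFP against Violet (19 and 45 reads, adjusted p = 0.013). Each comparison rests on 1 library per side.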

How the results depend on the processing

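All values here are log2 ratios to Bulk or counts of called genes, given in the order Claret, eGFP, Violet unless a library is named. Of the class summaries recomputed under each alternative, 202 stayed inside the interval around the main value or near the main count. Those 202 include counts that changed slightly. A further 60 moved and 5 changed sign. Of single-gene ratios, 630 kept direction and call or, for untested genes, stayed inside the main interval. Another 15 lost and 3 gained a call, 2 moved and 1 changed sign. With groups from the treatment field, replacement variants summed to 0.50, 0.018 and -0.12 with medians of 0.62, -0.0030 and -0.18, and 4 were called higher in Claret and 0 lower in any library. For HIST genes that grouping gave sums of 0.063 in Claret and -0.49 in eGFP, medians of 0.70 in Claret and 0.11 in Violet, 3, 0 and 1 called higher, and 1 called lower in eGFP and in Violet. These changes follow from another library standing as Bulk. With H2AFX counted as replication-dependent, since its mRNA can end in a stem-loop, HIST sums were -1.81, -1.82 and -1.64, and replacement medians -0.43, -0.61 and -0.49. Replacement sums were then -0.37, -0.51 and -0.39, the same as with H2AFX left out. Leaving out HIST1H2BJ gave HIST sums of -0.62 in eGFP and -0.60 in Violet. A filter at 10 CPM left HIST1H2BJ as the only HIST gene, so that the class median became 0.78 in Violet, -1.06 for Claret against eGFP and -1.41 for Claret against Violet, with 0 HIST genes called higher and 0 lower. With no filter, replacement medians were -0.017, -0.20 and -0.18, the HIST median in Claret was -0.088 and 4 HIST genes were called lower there. Library-size scaling gave replacement sums of -0.46, -0.59 and -0.44 and 1 HIST gene lower in Claret, and DESeq2 size factors gave -0.64 in eGFP and -0.54 in Violet. On the scale log2(FPKM + 1), 0 HIST genes were higher in any library and 1 was lower in Claret and in eGFP. The GC correction put HIST1H1C in eGFP at -0.0040, the replacement median in eGFP at -0.73 and 1 HIST gene lower in Claret. By the test alone, 3 replacement variants were higher in each library, 2 HIST genes were higher in eGFP and 4 lower in Claret. Except where the construction of the alternative shows it, the cause was not tested. HIST1H4I was no longer called on the FPKM scale (-0.87 in eGFP and -0.99 in Violet), nor was HIST1H2BD in Violet (0.77). No paired analysis was possible because each group holds 1 library, and for the same reason no library could be left out. Low read counts limit what can be said of the HIST genes, since 61 of 71 stayed under 10 reads in every library. The cause of these low counts was not tested.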

Other observations

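A further 35 rows with histone names are pseudogenes, apart from 1 antisense gene. In the order Bulk, Claret, eGFP, Violet they held 331, 221, 214 and 271 reads. The 17 processed pseudogenes, which resemble spliced mRNAs, had 199, 101, 117 and 138 reads, and the 6 transcribed unprocessed pseudogenes had 33, 61, 55 and 70. The antisense gene had 54, 35, 26 and 42 reads and lies at H1FX, whose own reads were higher in every slow-cycling library.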
